A study of Mus musculus with 23 samples.

Results

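Wild-type (WT) quadriceps, the large extensor muscle of the thigh, was compared between mice of 24 and 4 months of age, across all genes of a bulk RNA-seq experiment. The members are the libraries whose titles name WT and either of these ages, which gave 8 of the 23 libraries of the series. The 2 groups are WT_4m and WT_24m, each with 4 libraries from mice of the C57BL/6 background that carried no transgene and ate standard chow. Glucose and exercise tolerance tests were given to mice at times during life, and to which ones is not stated. The same ages were also sampled in MCK-NamptOE mice of the same background (OE_4m, 3 libraries, and OE_24m, 4 libraries), whose skeletal muscle makes extra Nampt, an enzyme of NAD synthesis. Those 7 libraries share no mouse with the WT groups and entered the fit to estimate the spread between mice. Each title names another animal, and replicate numbers below only tell libraries apart.

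Skeletal muscle is built of multinucleated fibres held in a collagen-rich connective tissue and supplied by a dense capillary bed. The collagens are made mostly by interstitial fibroblasts, the capillaries are lined by endothelial cells and wrapped by pericytes, and the fibres themselves secrete factors called myokines. Old muscle is known for loss of mass, denervation of some fibres and slow turnover of its collagen.

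The WT libraries held 2091448 to 3128916 counts on genes at 4 months and 2490224 to 3266645 at 24 months. Transcripts of the mitochondrial genome made up 24.7 to 31.9% of the counts at 4 months and 23.8 to 30.9% at 24 months. All 12 defining genes of skeletal muscle were measured, and their summed level was 168871 to 191984 CPM (counts scaled to library size) at 4 months and 150173 to 169543 CPM at 24 months. Xist had no count in any of the 8 libraries, while the Y-linked gene Ddx3y was at 90.3 to 104.7 CPM at 4 months and at 105.8 to 108.7 CPM at 24 months. The labels give no sex, date or batch for these mice. Nampt was at 203 to 253 CPM in WT_4m and 189 to 219 CPM in WT_24m, with a log2 fold change of -0.09 (adjusted p = 0.949; 0.02 when libraries were scaled by their total counts).

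Few genes passed the test between the ages. Of 9144 genes tested with edgeR's quasi-likelihood test, 14 passed a Benjamini-Hochberg adjusted p of 0.05, which is 0.153% of the genes. Of these, 6 rose (0.0656%) and 8 fell (0.0875%) from 4 to 24 months, and the 4 old and 4 young WT libraries did not overlap for any of the 14. Across all genes the groups did not overlap for 494, or 5.4%, with 237 higher (2.59%) and 257 lower (2.81%) at 24 months. An unadjusted p below 0.05 was reached by 337 genes higher (3.69%) and 444 lower (4.86%), 781 in all (8.54%). The median log2 fold change over all genes was close to 0. When libraries were scaled by their total counts in place of TMM (trimmed mean of M values), the median became 0.11 and the calls became 14 higher and 5 lower, 11 of the 14 among them.

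**Figure D1:**
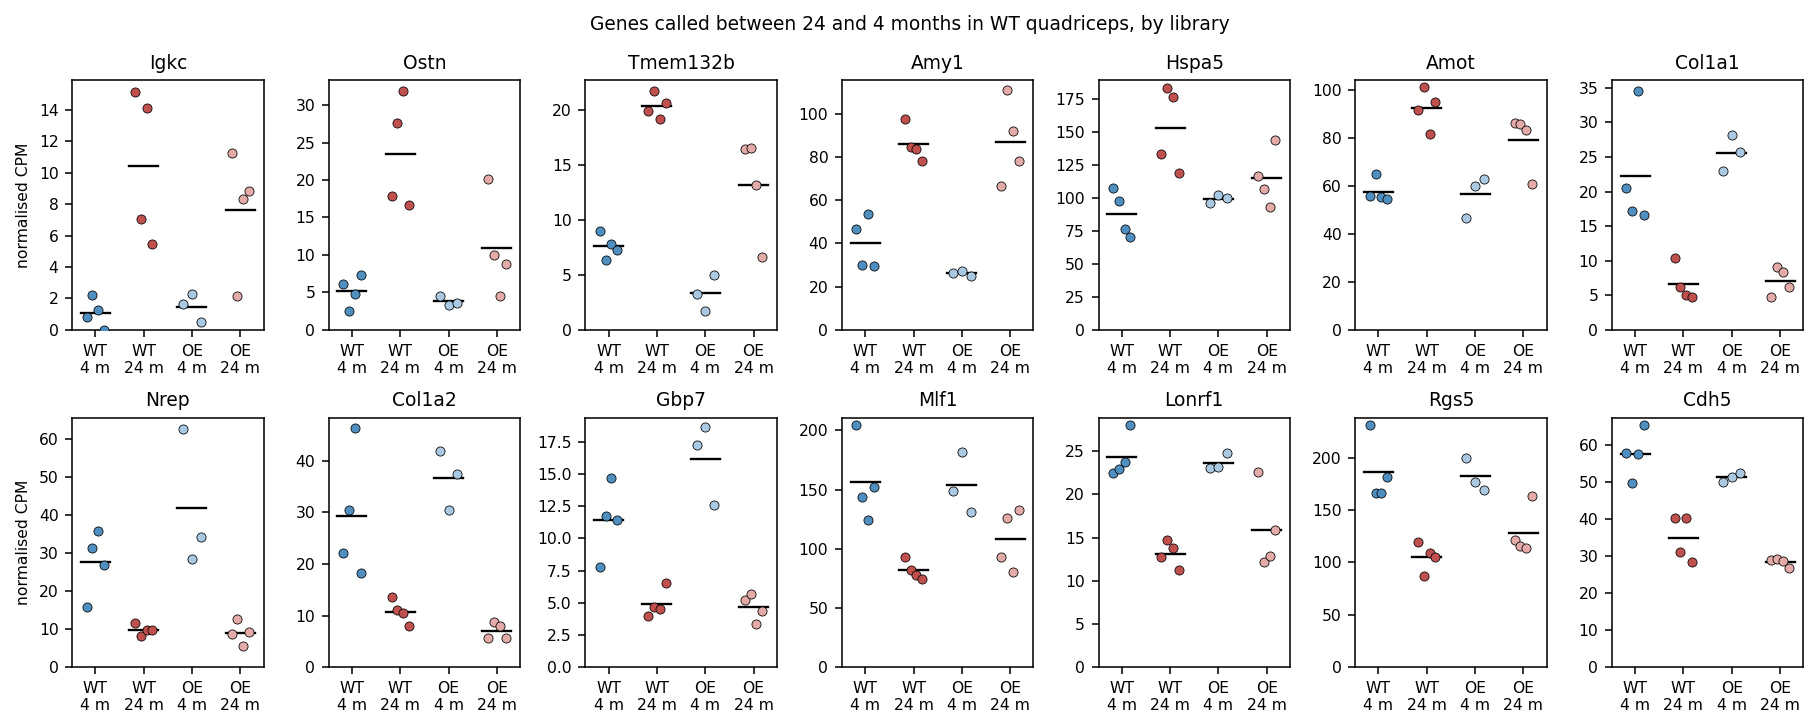
Normalised CPM of the 14 called genes in each library of WT and MCK-NamptOE (OE) quadriceps at 4 and 24 months, with a bar at each group's mean; the top row holds the 6 rises and Col1a1, the bottom row the other 7 falls. The WT groups are separate in every panel.

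The smallest p-value belonged to type I collagen, the main fibre-forming protein of the connective tissue. Col1a1 (ENSMUSG00000001506.10, chromosome 11, positions 94936224 to 94953042, plus strand) encodes its alpha 1 chain. It was at 20.5, 17.2, 34.6 and 16.6 CPM in the 4 young libraries and at 10.3, 6.17, 5.11 and 4.71 CPM in the old ones. The lowest young library thus lay above the highest old one. The fall was 3.41-fold, from 22.2 ± 8.44 to 6.58 ± 2.58 CPM (mean ± SD over 4 libraries), with a log2 fold change of -1.77 (SE 0.26, adjusted p = 0.00618). Col1a1 was the only gene of the 14 that passed in each of the 8 fits that leave out 1 WT library.

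Col1a2 (ENSMUSG00000029661.10, chromosome 6, positions 4504814 to 4541544), the partner alpha 2 chain, was at 22.1, 30.5, 46.3 and 18.2 CPM at 4 months and at 13.5, 11.2, 10.5 and 7.97 CPM at 24 months. It fell 2.73-fold (log2 fold change -1.45, SE 0.24, adjusted p = 0.011), and lost its call without WT_24m replicate 2 or WT_4m replicate 2 (adjusted p up to 0.055). WT_4m replicate 3 had the highest level of both chains, and without it the log2 fold change of Col1a1 was -1.48 (adjusted p = 0.0144), the smallest in size over the 8 fits that leave out 1 WT library. In a bulk sample, fewer collagen-making cells and less collagen RNA per cell cannot be told apart.

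Most of the collagen list lay on the same side. Of its 35 genes, 26 were tested, 21 lay below 0, and 2 of them, the type I chains, fell. Another 15 had an unadjusted p below 0.05 and lay lower, so that 17 of 26 did, against 4.86% of all genes. The median log2 fold change of the list was -0.70, and the count of 17 became 15 to 18 when single WT libraries were left out. All 13 tested collagen chains had log2 fold changes below 0, with a median of -0.91.

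The next chains by strength of evidence did not pass edgeR's test, though those given here pass in the authors' deposited table, described below. Col4a2, a chain of the basement membrane collagen, was at 52.0, 37.5, 54.9 and 38.9 CPM in the young libraries and at 28.6, 25.3, 32.7 and 30.1 CPM in the old ones (log2 fold change -0.65, adjusted p = 0.0795). Col4a1, its partner, was at 58.5 to 76.1 CPM and at 23.8 to 46.6 CPM (-0.84, adjusted p = 0.0833). Col5a3, a chain that joins type I fibres, was at 23.3 to 37.2 and at 14.1 to 19.2 CPM (-0.75, adjusted p = 0.0907). The groups of these 3 genes did not overlap. Col3a1, the fibrillar collagen of reticular fibres, was at 47.1, 41.0, 113 and 22.8 CPM against 23.9, 13.5, 17.4 and 9.42 CPM. Its log2 fold change of -1.81 was as large as that of Col1a1, but the groups overlapped and the adjusted p was 0.152.

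Enzymes that modify collagen inside the cell did not share this direction. Of the 6 tested prolyl and lysyl hydroxylases, which hydroxylate new chains, 5 had log2 fold changes above 0 and their median was 0.27. P4hb, which is a subunit of prolyl hydroxylase and also a general protein disulphide isomerase, was at 127, 115, 127 and 122 CPM in the young libraries. In the old ones it was at 160, 159, 167 and 150 CPM, with no overlap (log2 fold change 0.38, SE 0.11, adjusted p = 0.211). Serpinh1, the collagen chaperone, was at 14.7, 14.9, 14.3 and 6.75 CPM against 7.97 to 9.31 CPM, with WT_4m replicate 4 apart from its group. This grouping by role was made after the values were seen.

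**Figure D2:**
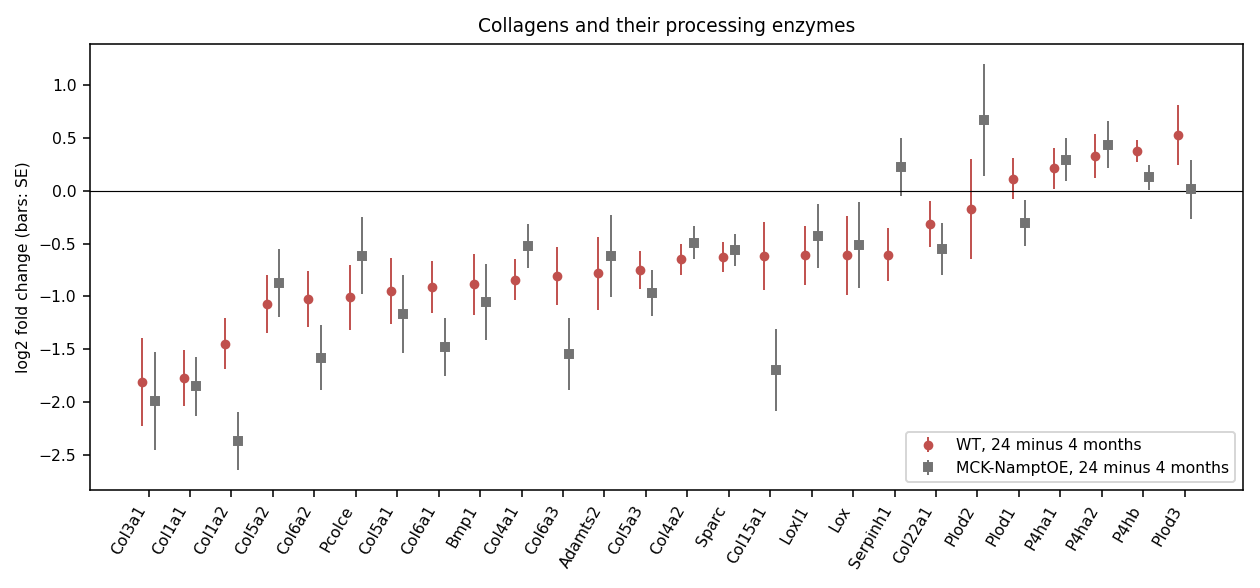
Log2 fold change (24 minus 4 months) with its SE for the 26 tested collagen genes, in WT (circles) and MCK-NamptOE (squares), ordered by the WT value. All 13 collagen chains lie below 0 in WT, and the prolyl and lysyl hydroxylases are at the right.

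Some promoter sequence is shown for Col1a2 and for the partner chains Col4a1 and Col4a2. RefSeq's promoter windows (GRCm38.p6, 250 bases before to 50 after each gene's start) have an entry for 8 of the 14 called genes. Col1a1 has none, so it is not shown beside Col1a2. Each line gives 30 bases on the gene's own strand, with the CCAAT box (CCAAT, or ATTGG where it reads on the other strand) in capitals. Col1a2 holds 2 such boxes, and the one shown begins 109 bases before the start that RefSeq gives, at chr6:4505497-4505526, while the other lies at that start. RefSeq's starts of Col1a2 and Hspa5 lie inside the spans printed here for these genes, which come from GENCODE. Col4a1 and Col4a2 start 21 bases apart on opposite strands of chromosome 8, and their boxes lie at chr8:11312954-11312983 and chr8:11312761-11312790. This short motif is common, as 37.4% of all 32851 windows hold it. Of the 25 collagen genes with an entry, 9 hold it in any of their windows.
Col1a2: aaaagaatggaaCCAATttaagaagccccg
Col4a1: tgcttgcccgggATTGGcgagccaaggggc
Col4a2: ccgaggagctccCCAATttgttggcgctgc

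Matrix genes other than collagens, and markers of the cells that make them, lay lower too, without a member past edgeR's test. Some of these genes pass in the authors' deposited table, described below. Of 31 tested matrix genes, 11 had an unadjusted p below 0.05 and lay lower and 1 lay higher, and the median was -0.37. Without WT_4m replicate 3 or without WT_24m replicate 2 the 11 became 6, as it did with total-count scaling. Sparc, a collagen-binding glycoprotein counted with the collagens, was at 79.0, 92.8, 114 and 93.9 CPM against 66.4, 57.5, 59.5 and 62.0 CPM (log2 fold change -0.63, adjusted p = 0.0795). Mmp2, a gelatinase, was at 12.5 to 23.4 CPM against 7.63 to 10.1 CPM (-0.97, adjusted p = 0.276). The 1 that lay higher was Tgfb2, a growth factor known to stimulate matrix production, at 6.14 to 10.8 CPM against 14.7 to 18.9 CPM (0.92, adjusted p = 0.132). Neither Mmp2 nor Tgfb2 overlapped between the groups.

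Among 14 tested markers of fibroblasts and fibro-adipogenic progenitors, 11 lay below 0, 2 with an unadjusted p below 0.05, and the median was -0.40 (-0.20 without WT_4m replicate 3 and -0.25 without WT_24m replicate 2). Without WT_24m replicate 1 the 2 became 4. Their summed level was 614 to 861 CPM at 4 months and 460 to 624 CPM at 24 months, so the groups overlapped slightly. The summed level of 11 tendon markers was 74.4 to 105.3 CPM at 4 months and 33.3 to 58.3 CPM at 24 months, without overlap. Only 5 of the 11 were tested, all below 0. Fibin and Prg4 had most of the list's counts, so the sum mostly follows them. In MCK-NamptOE muscle the tendon sums overlapped, at 64.0 to 103.4 and 51.1 to 107.7 CPM. An exact two-sided permutation test gave p = 0.0286 for the WT tendon sum, the smallest that 4 against 4 libraries allow, and 0.133 after adjustment over 14 library qualities. The WT Schwann cell sum, at 40.5 to 47.6 against 27.9 to 38.2 CPM, gave the same values, with 3 of its 14 markers tested. The part of these cell markers in the fall of type I collagen was not tested.

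Among genes of the capillary wall, 1 endothelial marker and 1 pericyte marker fell. Cdh5 (ENSMUSG00000031871.8, chromosome 8, positions 104101625 to 104144511), the cadherin of endothelial junctions, was at 57.7, 49.6, 57.5 and 65.4 CPM in the young libraries. In the old libraries it was at 40.2, 31.1, 40.3 and 28.3 CPM, all below the young ones. It fell 1.64-fold (log2 fold change -0.71, SE 0.14, adjusted p = 0.0268). It passed in 3 of the 8 fits that leave out 1 WT library, those without WT_24m replicate 1, WT_24m replicate 3 or WT_4m replicate 2, with adjusted p up to 0.197 in the others. Rgs5 (ENSMUSG00000026678.5, chromosome 1, positions 169655501 to 169695813), a regulator of G-protein signalling used as a pericyte marker, was at 231, 166, 166 and 181 CPM against 119, 87.2, 109 and 105.2 CPM. It fell 1.77-fold (log2 fold change -0.82, SE 0.14, adjusted p = 0.0113), and lost its call without WT_24m replicate 2 or WT_4m replicate 1 (adjusted p up to 0.0939).

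All 19 tested endothelial markers had log2 fold changes below 0, against 49.5% of all genes, and 7 of them had an unadjusted p below 0.05, which became 4 without WT_4m replicate 3, without WT_24m replicate 2 or with total-count scaling. Their median was -0.39 and turned to -0.28 with total-count scaling. Pecam1, an adhesion molecule of endothelial junctions, was at 35.9 to 47.5 CPM in the young libraries and at 24.6 to 32.2 CPM in the old ones (log2 fold change -0.59, adjusted p = 0.122). Egfl7, a factor secreted by endothelium, was at 13.7 to 16.6 and at 6.46 to 12.3 CPM (-0.81, adjusted p = 0.245), and the groups of both genes were separate. Kdr, the main VEGF receptor, overlapped widely, at 9.85 to 19.9 and 12.3 to 21.1 CPM. The summed level of the list also overlapped, at 689 to 996 CPM against 502 to 1048 CPM, with WT_24m replicate 1 highest. This list holds Fabp4, which is also an adipocyte marker.

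Of 12 tested smooth muscle and pericyte markers, 11 lay below 0 and 4 had an unadjusted p below 0.05. Pdgfrb, the receptor that recruits pericytes to vessels, was at 15.6, 12.1, 13 and 13 CPM in the young and at 8.75, 7.34, 6.61 and 5.80 CPM in the old libraries (log2 fold change -0.91, SE 0.20, adjusted p = 0.0692). Kcnj8, a potassium channel subunit of pericytes, was at 3.49 to 9.41 CPM against 0.796 to 3.0 CPM (-1.45, adjusted p = 0.231). The summed level of this list was 2584 to 3021 CPM at 4 months and 2842 to 3048 CPM at 24 months. Most of this sum came from Des, which muscle fibres express. Des had 51052 counts in the WT libraries, against 3069 for Rgs5, and was the 1 tested member above 0 (log2 fold change 0.15). Pdgfrb and Kcnj8 thus lay on the side of Rgs5, with separate groups. The list sum follows Des and cannot show whether pericyte markers moved.

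**Figure D3:**
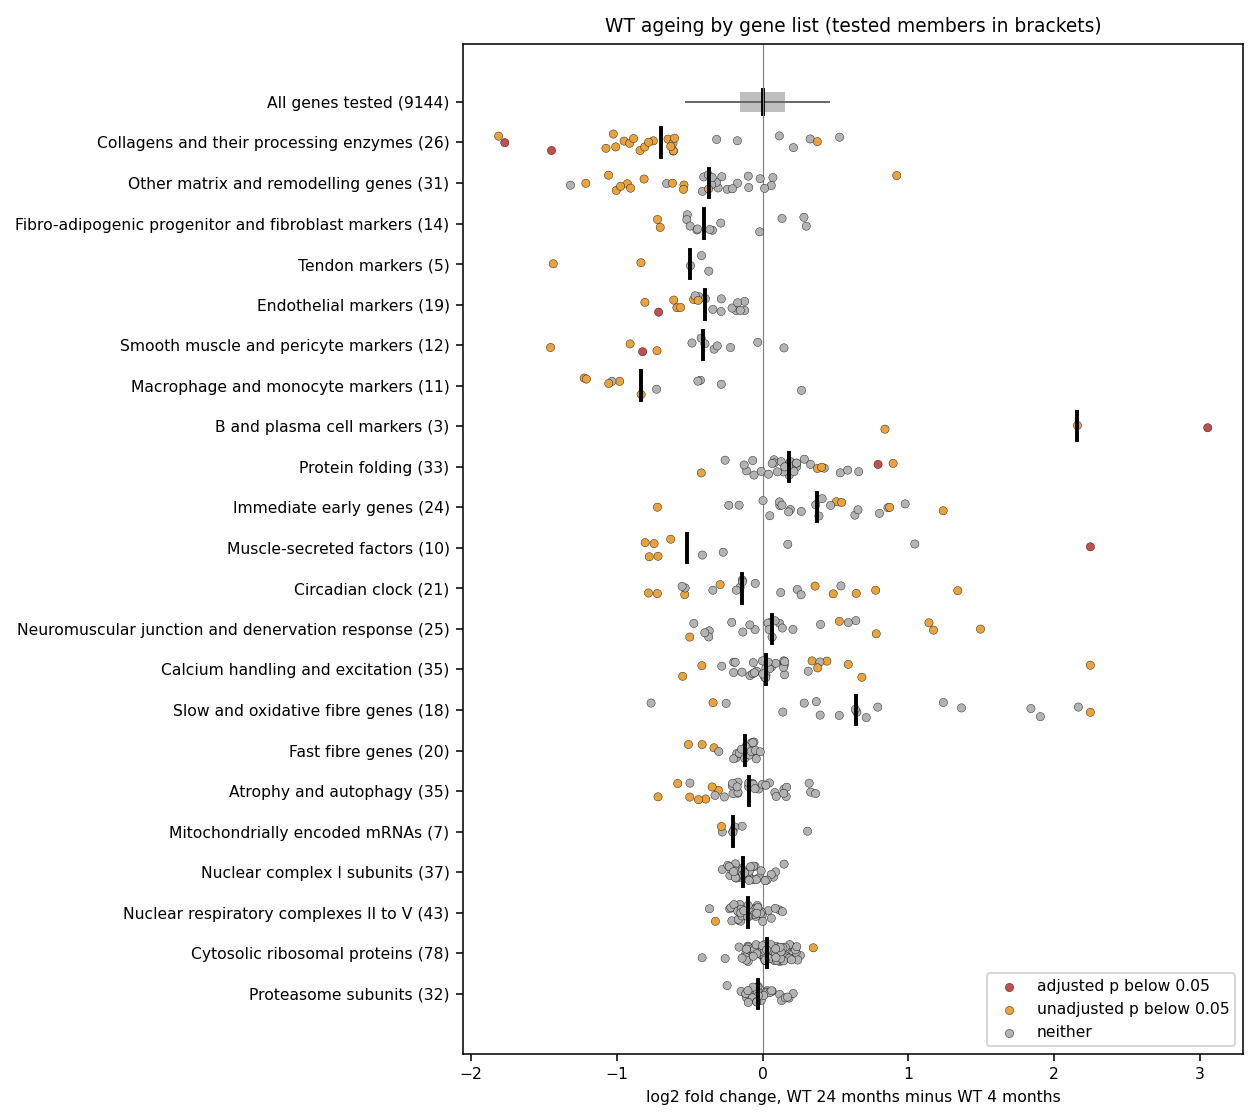
Log2 fold change of WT ageing for the tested members of 22 gene lists, with a bar at each list's median; the top row gives all 9144 genes (bar: median, box: middle 50%, line: 5th to 95th percentile). Collagen, vascular and macrophage lists lie left of 0, and the respiratory, ribosomal and proteasome lists are narrow and centred near it.

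The largest rise was in an antibody chain. Igkc (ENSMUSG00000076609.1, chromosome 6, positions 70726435 to 70726966), the constant region of the kappa light chain made by B and plasma cells, had 2, 7, 3 and 0 counts in the young libraries. In the old libraries it had 38, 24, 47 and 15 counts, that is 5.44 to 15.1 CPM against 0 to 2.22 CPM. It rose with a log2 fold change of 3.05 (SE 0.56, adjusted p = 0.0302), from 12 counts in all to 124. Of the 8 fits that leave out 1 WT library it passed in 1, that without WT_24m replicate 4, with adjusted p up to 0.0948 in the others.

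Other antibody genes were measured at low levels. Heavy chain genes resemble each other, and reads without a unique alignment were not counted on any gene. Ighg2c, a heavy chain of class-switched antibody, had 16 counts in the young libraries and 90 in the old ones, at 0.432 to 3.11 and 3.90 to 10.6 CPM (log2 fold change 2.16, adjusted p = 0.132). Ighm, the heavy chain of unswitched antibody, was at 51.1 to 82.3 and 76.6 to 171 CPM, and its groups overlapped (0.84, adjusted p = 0.571). The summed level of 17 B and plasma cell markers was 55.0 to 87.6 CPM at 4 months and 98.5 to 184 CPM at 24 months (exact two-sided permutation p = 0.0286, adjusted p = 0.133). Only 3 of the 17 passed the filter on low counts, and Ighg1 and Ighg3 had no count in any WT library.

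Markers of other immune cells gave no call. Of 26 macrophage and monocyte markers 11 were tested, 10 lay below 0, and the median was -0.83. One young library stood apart, as the summed level was 75.7, 96.6, 266 and 70 CPM in WT_4m and 53.4 to 92.8 CPM in WT_24m. Without WT_4m replicate 3 the median was -0.14, and the members with an unadjusted p below 0.05 went from 5 to 0. They were 2 or 3 when any old library was left out and 3 with total-count scaling. None of the 18 T and NK cell markers and none of the 13 neutrophil and mast cell markers passed the filter, and 8 and 5 of them had no WT count. In the interferon list, Gbp7, a guanylate-binding protein, was at 7.78, 11.8, 14.7 and 11.4 CPM in the young and at 3.98, 4.70, 4.51 and 6.52 CPM in the old libraries. It fell 2.3-fold (log2 fold change -1.20, SE 0.25, adjusted p = 0.0403), and no other of the 13 tested members passed. With single WT libraries left out, Gbp7 passed in 2 of 8 fits, those without WT_24m replicate 4 or WT_4m replicate 1, with adjusted p up to 0.207. GENCODE release M21 places Gm43802 over Gbp7 on the same strand. Gm43802 is not among the genes that were counted, and its share in the level of Gbp7 is not known.

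**Figure D4:**
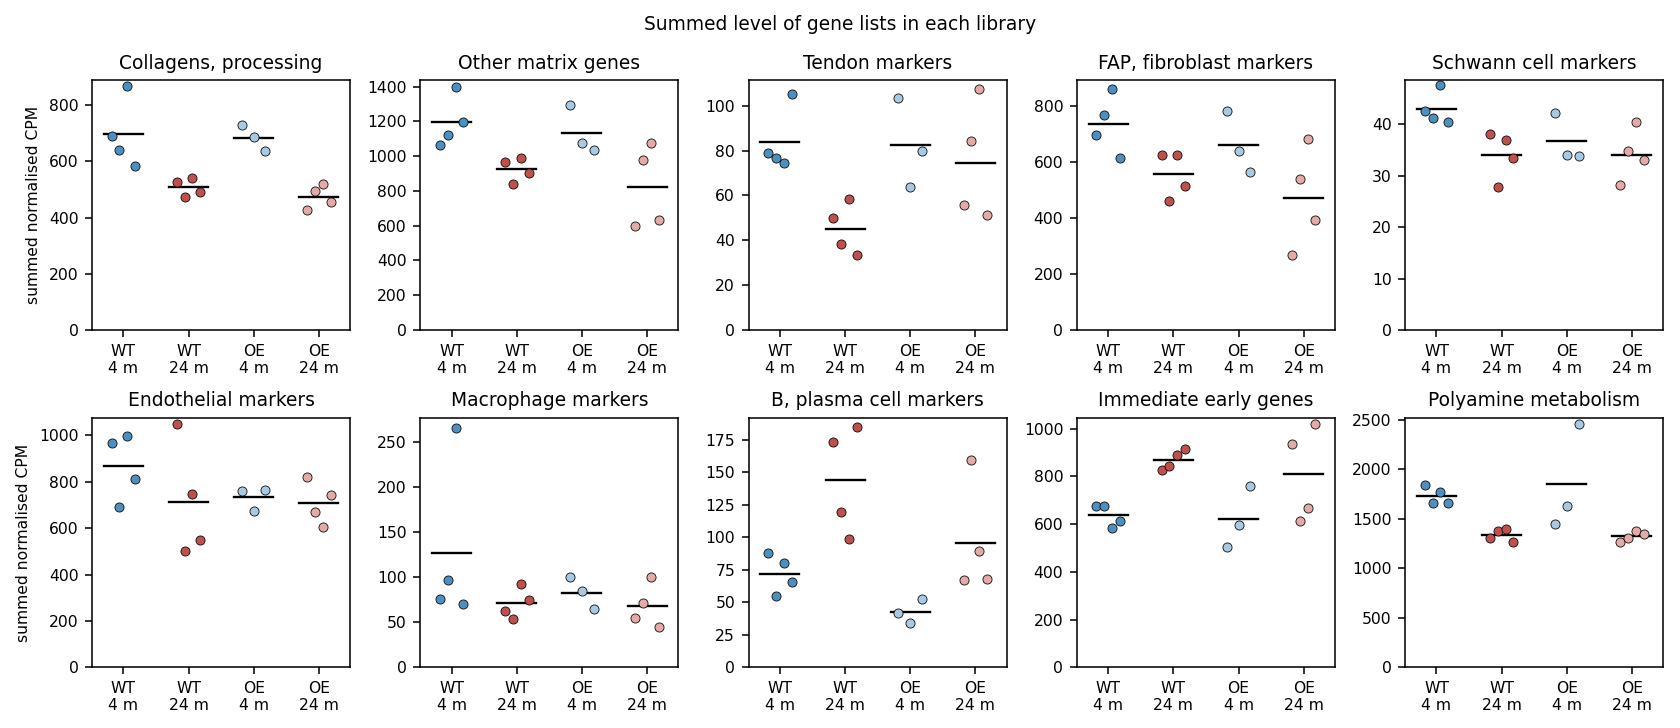
Summed normalised CPM of 10 gene lists in each library of WT and MCK-NamptOE (OE) quadriceps, with a bar at each group's mean. In WT, the collagen, matrix, tendon, Schwann cell, B and plasma cell, immediate early and polyamine sums are separate between ages, while the fibroblast, endothelial and macrophage sums overlap.

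Among factors secreted by muscle, Ostn rose and several others lay lower. Ostn (ENSMUSG00000052276.8, chromosome 16, positions 27307489 to 27351212) encodes osteocrin, also called musclin, a peptide that binds the clearance receptor of natriuretic peptides. It was at 6.14, 2.54, 4.76 and 7.26 CPM in the young libraries and at 17.9, 27.6, 31.8 and 16.7 CPM in the old ones. It rose 4.75-fold (log2 fold change 2.25, SE 0.37, adjusted p = 0.0113), and lost its call without WT_24m replicate 2, WT_4m replicate 2 or WT_4m replicate 3 (adjusted p up to 0.0623). Every old library held more than 2 times the level of every young one. The reference annotation places another gene on the opposite strand over an exon of Ostn, and the strand used in counting is not given. That other gene is not among the genes that were counted.

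Of 10 tested genes of this list, 5 had an unadjusted p below 0.05 and lay lower, and the median was -0.52. Without WT_24m replicate 4, WT_4m replicate 3 or WT_4m replicate 4 the 5 became 3. Mstn (myostatin, which restrains muscle growth) was at 96.2, 101, 72.7 and 109 CPM against 63.7, 42.0, 67.3 and 58.0 CPM (log2 fold change -0.72, adjusted p = 0.117). Igf1, a growth factor for muscle, was at 7.78 to 21.2 CPM against 3.99 to 11.1 CPM, with overlap (-0.74, adjusted p = 0.487). Mstn thus separated the groups and Igf1 did not.

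Hspa5 rose among the genes of protein folding. Hspa5 (ENSMUSG00000026864.7, chromosome 2, positions 34771970 to 34777547) encodes BiP, the Hsp70 chaperone of the endoplasmic reticulum. It was at 108, 98.2, 77.0 and 70.6 CPM in the young libraries and at 133, 184, 177 and 119 CPM in the old ones. It rose 1.73-fold (log2 fold change 0.79, SE 0.16, adjusted p = 0.0403), and with a single WT library left out it passed in 2 of 8 fits, those without WT_24m replicate 4 or WT_4m replicate 1 (adjusted p up to 0.265). Of 33 tested protein folding genes, 26 lay above 0, against 50.5% of all genes, 4 with an unadjusted p below 0.05, and the median was 0.18 (0.29 with total-count scaling). The 4 became 10 with total-count scaling and 7 without WT_4m replicate 1, and the median was 0.09 without WT_24m replicate 3.

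Many chaperones of the endoplasmic reticulum share a promoter element, named the ER stress response element (ERSE), to which NF-Y and ATF6 are known to bind. It was searched as CCAAT, any 9 bases and CCACG, on both strands, and any match also holds a CCAAT box. It was found in 39 of 32851 windows (0.119%). Of the 28 protein folding genes with an entry, 5 hold it in any of their windows, a share per gene and not per window. These 5 are shown so that their values can be read beside a shared sequence. The fixed letters of the element are in capitals, and the 30 bases lie at chr2:34772020-34772049 (Hspa5), chr10:86705527-86705556 (Hsp90b1, the nearer of 2 matches), chr11:50325794-50325823 (Canx), chr8:84847069-84847098 (Calr) and chr12:17266486-17266515 (Pdia6), each on its gene's own strand.
Hspa5: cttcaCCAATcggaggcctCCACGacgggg
Hsp90b1: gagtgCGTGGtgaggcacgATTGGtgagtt
Canx: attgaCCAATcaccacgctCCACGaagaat
Calr: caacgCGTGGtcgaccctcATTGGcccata
Pdia6: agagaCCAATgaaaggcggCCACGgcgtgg

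Beside Hspa5, the other 4 genes with this element did not pass the test, and their values were smaller. Canx, a lectin chaperone, was at 52.8 to 74.1 CPM in the young and 72.5 to 96.7 CPM in the old libraries (log2 fold change 0.40, adjusted p = 0.306). Hsp90b1, the Hsp90 of the endoplasmic reticulum, was at 92.5 to 121 and 113 to 154 CPM (0.38, adjusted p = 0.311). For Calr, the soluble lectin chaperone, the log2 fold change was 0.22 (adjusted p = 0.666), and for Pdia6, a disulphide isomerase, it was 0.23 (adjusted p = 0.857). The groups of these 4 genes overlapped, unlike those of Hspa5.

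The remaining 6 called genes belong to none of the gene lists. Amy1 (ENSMUSG00000074264.6, chromosome 3, positions 113555710 to 113606699), the salivary-type amylase that cleaves starch and glycogen, was at 46.7, 30.2, 53.6 and 29.6 CPM in the young and at 97.5, 84.6, 83.8 and 77.9 CPM in the old libraries. It rose 2.15-fold (log2 fold change 1.10, SE 0.18, adjusted p = 0.00968), and lost its call without WT_4m replicate 2 (adjusted p = 0.0538). Amylase genes have close copies and Amy1 shares exon sequence with Rnpc3 in the annotation, so its level is uncertain. Tmem132b, a transmembrane protein gene, was at 9.0, 6.35, 7.78 and 7.26 CPM against 19.9, 21.7, 19.2 and 20.7 CPM and rose 2.69-fold (log2 fold change 1.43, adjusted p = 0.0113). Both groups of Tmem132b were narrow and lay far apart, and it lost its call without WT_24m replicate 2 or WT_4m replicate 2 (adjusted p up to 0.0713).

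Amot, which encodes the junction protein angiomotin, was at 55.7, 65.1, 55.4 and 54.5 CPM in the young and at 91.5, 101, 81.7 and 95 CPM in the old libraries, and rose 1.6-fold (log2 fold change 0.68, adjusted p = 0.0403). Nrep, a gene linked to regeneration of nerve, was at 16 to 35.9 CPM against 8.22 to 11.5 CPM and fell 2.81-fold (-1.49, adjusted p = 0.0328). Mlf1, named after a leukaemia fusion and well expressed in muscle, was at 125 to 204 CPM against 74.3 to 93.1 CPM and fell 1.91-fold (-0.93, adjusted p = 0.0129). Lonrf1, which encodes a RING finger protein with a LON domain, was at 22.5 to 28.0 CPM against 11.2 to 14.7 CPM and fell 1.83-fold (-0.87, adjusted p = 0.0437). Nrep passed in 1 of the 8 fits that leave out 1 WT library, that without WT_4m replicate 1 (adjusted p up to 0.202 in the others). Mlf1 passed in 4 of 8 and lost its call without WT_4m replicate 1 or without WT_24m replicate 2, 3 or 4 (adjusted p up to 0.0749). Amot and Lonrf1 lost their calls whichever of the 8 WT libraries was left out, although their log2 fold changes stayed within 0.62 to 0.73 and -0.94 to -0.80.

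No gene of the lists for the nerve contact, atrophy, contraction and energy metabolism of the fibre passed edgeR's test. Some of them pass in the authors' deposited table, described below. Of 25 tested genes of the neuromuscular junction and the response to denervation, 5 had an unadjusted p below 0.05 and lay higher, 1 lay lower, and the median was 0.07 (0.17 with total-count scaling and -0.04 without WT_4m replicate 4). Runx1, a transcription factor known to be induced when a fibre loses its nerve, was at 4.91, 3.49, 6.05 and 7.26 CPM in the young and at 7.96, 13.5, 12 and 12.7 CPM in the old libraries (log2 fold change 1.14, adjusted p = 0.211). Chrnb1, a subunit of the acetylcholine receptor, was at 24.4 to 33.6 CPM against 39.0 to 48.2 CPM (0.53, adjusted p = 0.276), and neither gene overlapped. Chrna1, the receptor's alpha subunit, overlapped, at 5.72 to 15.1 and 8.36 to 18.5 CPM. Myog, a myogenic transcription factor that responds to denervation, was at 2.59 to 5.40 CPM against 2.90 to 16.4 CPM (log2 fold change 1.17).

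The ubiquitin ligases of atrophy did not lie higher in old muscle. Trim63 was at 3110 to 4864 CPM in the young and 2427 to 3567 CPM in the old libraries (log2 fold change -0.50, adjusted p = 0.306). Fbxo32 was at 2614 to 3276 CPM and 2108 to 2674 CPM (-0.30, adjusted p = 0.487). Of the 35 tested genes of atrophy and autophagy, 7 had an unadjusted p below 0.05, all lower. The 7 became 3 with total-count scaling and 4 without WT_4m replicate 4. The list's median was -0.10 and turned to 0.02 with total-count scaling.

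Among contractile genes, all 20 tested fast fibre genes lay below 0, with a median of -0.12, and with total-count scaling 11 did, with a median of -0.01. Of these genes 0 passed edgeR's test and 3 had an unadjusted p below 0.05, which became 1 with total-count scaling and without WT_24m replicate 1, WT_24m replicate 3 or WT_4m replicate 3. Myl1, the fast alkali light chain of myosin, was at 8834 to 10889 CPM against 6400 to 7406 CPM, without overlap (log2 fold change -0.51, adjusted p = 0.11). Sln, whose product sarcolipin inhibits the calcium pump of the sarcoplasmic reticulum, had 2, 0, 6 and 1 counts in the young and 7, 20, 11 and 17 counts in the old libraries (2.25, adjusted p = 0.167). Slow fibre genes varied widely within each age. Myh7, the slow myosin heavy chain, was at 8.19, 0.318, 0.432 and 16.6 CPM in the young and 63.3, 1.76, 40.0 and 0.362 CPM in the old libraries.

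Genes of energy metabolism and protein turnover had medians near 0. Of 37 nuclear complex I subunits 0 had an unadjusted p below 0.05, with a median of -0.14, and of 43 subunits of complexes II to V 1 did, with a median of -0.10. Of 78 cytosolic ribosomal protein genes 1 did, with a median of 0.03, and of 32 proteasome subunits 0 did, with a median of -0.03. Total-count scaling puts the median of all genes at 0.11, and with it the medians of complexes II to V and of the proteasome change sign. The ribosomal count of 1 became 4 with that scaling. Below 0 lay 31 of the 37 complex I subunits and 37 of the 43 of complexes II to V, against 49.5% of all genes. With total-count scaling these became 20 and 18, where 2897 of all 9144 genes lay below 0. Without WT_4m replicate 1 they became 19 and 21, and the median of complex I was close to 0. Of 8 tested genes of NAD synthesis 0 had an unadjusted p below 0.05, and Cd38, an enzyme that breaks NAD down, was at 3.89 to 9.34 CPM against 2.90 to 4.51 CPM (log2 fold change -0.76, adjusted p = 0.488).

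The ageing changes of WT muscle were then set beside those of MCK-NamptOE muscle, in other mice. All 14 genes had the same sign there, against 56.6% of all genes, and 7 of them passed the test in MCK-NamptOE too, where 67 genes (0.733%) passed in all, 29 higher (0.317%) and 38 lower (0.416%). The shared 7 were 50% of the WT calls and 10.4% of the MCK-NamptOE calls. Both contrasts came from the same fit and share its estimate of the spread, so their calls are not independent. The 56.6% also covers the many genes that changed little with age. Col1a1 was at 23 to 28.2 CPM in OE_4m and 4.83 to 9.15 CPM in OE_24m (log2 fold change -1.85, adjusted p = 0.0012), beside -1.77 in WT. Amy1 was at 24.7 to 27.3 and 66.4 to 111 CPM (1.73, adjusted p = 5.91e-05). Without OE_24m replicate 4, the library farthest from its group, 9 of the 14 passed there; that fit was added after the data were seen.

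Ostn, Rgs5, Hspa5, Mlf1, Igkc, Amot and Lonrf1 did not pass in MCK-NamptOE muscle. Hspa5 was at 96.0 to 103 CPM in OE_4m and 93.3 to 144 CPM in OE_24m, with overlap (log2 fold change 0.21, adjusted p = 0.726). The difference between the genotypes' ageing changes was tested for every gene, and 0 of 9144 passed edgeR's test, while 498 (5.45%) had an unadjusted p below 0.05 and DESeq2 gave 1 call. For the 14 genes the adjusted p of this difference was 0.868 to 0.987, and 3 of them had an unadjusted p below 0.05. The lowest adjusted p of any gene in this test was 0.442. The lack of a call therefore does not show that the 14 changed equally in both genotypes. Of the 67 genes called in MCK-NamptOE, 59 had the same sign in WT and 32 also had an unadjusted p below 0.05 there. All 18 tested slow fibre genes lay above 0 in MCK-NamptOE with a median of 2.30, against 0.64 in WT, where it ran from 0.28 without WT_4m replicate 2 to 0.91 without WT_24m replicate 4. Of complex I subunits, 35 of 37 lay above 0 in MCK-NamptOE and 6 of 37 in WT. Of the subunits of complexes II to V, 42 of 43 lay above 0 in MCK-NamptOE and 6 of 43 in WT. These differences of whole lists between genotypes were not tested.

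**Figure D5:**
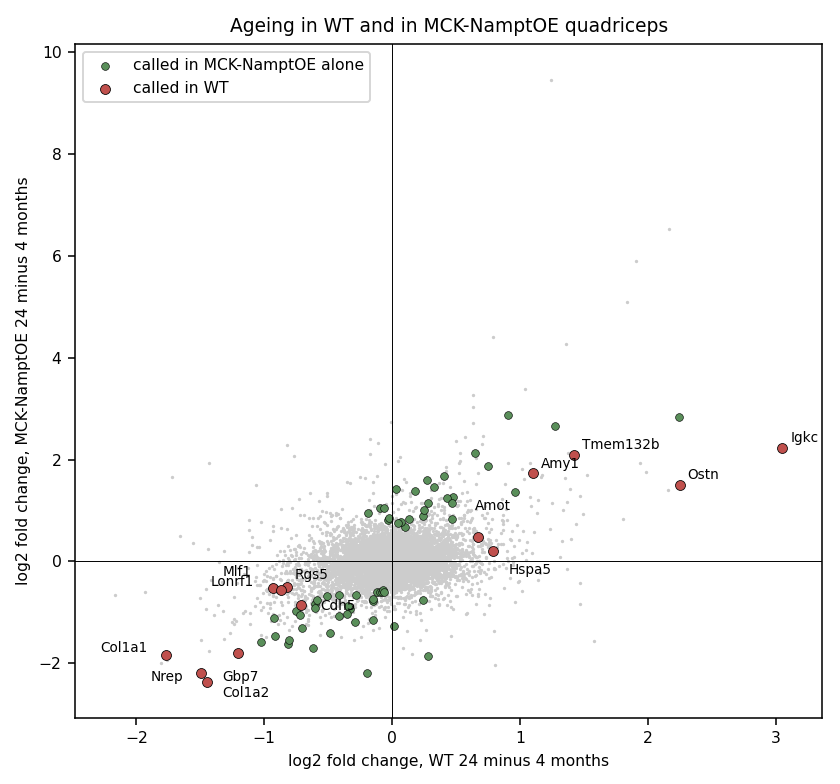
Log2 fold change of each of 9144 genes with age in WT (x axis) and in MCK-NamptOE (y axis) quadriceps. The 14 genes called in WT lie at the lower left and the upper right, that is with the same sign in both genotypes.

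The authors' deposited table of WT at 24 against 4 months lists more genes. It gives an adjusted p below 0.05 to 248 of 11878 genes (2.09%), 102 higher (0.859%) and 146 lower (1.23%), and all 14 genes above are among them with the same sign. Of those 248, 215 were tested here, all 215 had the same sign, and 189 had an unadjusted p below 0.05. In the authors' deposited table the log2 fold change of Col1a1 is -1.75 and that of Pdgfrb is -0.73, with an adjusted p of 0.000466 for Pdgfrb. Other genes without a call above also have an authors' adjusted p below 0.05. Among them are the collagen chains Col3a1 (0.000224), Col4a1 (0.000256), Col4a2 (0.00162) and Col5a3 (0.0332). Sparc (0.0122), P4hb (6.44e-05), Mmp2 (0.0432), Tgfb2 (0.0425) and Pecam1 (0.00227) are among them too. So are Chrnb1 (0.000342), Myog (0.00371), Sln (0.000131), Myl1 (0.00411), Canx (0.00464), Hsp90b1 (0.0192) and Cd38 (0.013). Runx1 (0.0739), Chrna1 (0.106), Trim63 (0.159), Fbxo32 (0.256), Calr (0.097) and Pdia6 (0.0615) do not. Neither do Serpinh1 (0.47), Egfl7 (0.494), Kcnj8 (0.48) and Mstn (0.16). Such calls thus depend on the method.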

How the data were processed

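The authors deposited raw counts per gene for each library. The tools named in the submitters' processing notes are TopHat2, HTSeq, cutadapt 1.4.2, DESeq and DESeq2, and the build is mm10; order and settings are not given in the sources used here. Their deposited table also gives a mean normalised signal, a log2 fold change, a test score and p-values per gene, per the file headers. Reads not assigned to a gene (33.6 to 38.8% of each WT file) were left out. The 15 libraries at 4 and 24 months were fitted together with edgeR 4.0.16 (its quasi-likelihood F test, robust, with a mean per group, TMM, filterByExpr, Benjamini-Hochberg) in R 4.3.3, leaving 9144 genes and 11 residual degrees of freedom. The 7-month libraries, extracted with another kit, were not used. The median SE of a WT log2 fold change was 0.21, which limits what small changes could be seen. The test was also run on simulated counts drawn from the fit's own means and spread. That run cannot show how the test behaves where a library stands apart from its group. CPM are TMM-scaled. Positions are from GENCODE release M21 by gene identifier, and p-values reflect how much these mice vary. Named genes were Nampt, the called genes (up to 15 in each direction, mean of at least 1 CPM, no overlap), and up to 4 called or the 2 most expressed members of each of 48 lists; other named genes were chosen after their values were seen. The members and lists were chosen with earlier results of these data known. Alternatives were DESeq2's test and size factors, total counts, no filter, the 8 WT libraries alone and each WT library left out.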

Additional observations from a re-analysis of the deposited data

Results flagged for a closer look

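Within a group of 4, a library was singled out where its gap to the next one was above Dixon's 95% critical value for the group's range; chance gives about 1 in 20 groups, and 13 of the 332 groups looked at were singled out. WT_4m replicate 3 held 99.9 CPM of the macrophage gene Lyz2 (others 28.5 to 38.1), 19.5 CPM of Mrc1 (4.91 to 5.72), 44.5 CPM of the proteoglycan Bgn (16.5 to 18.7) and 465 CPM of the cardiac actin Actc1 (114 to 139.8). Its macrophage sum was also the highest. WT_24m replicate 1 held 260.2 CPM of the adipocyte gene Cfd (others 17.8 to 24.1) and 299 CPM of Ndufa12 (248 to 254). WT_4m replicate 2 held 65.1 CPM of Amot (54.5 to 55.7) and 9.85 CPM of Kdr (19.2 to 19.9). WT_24m replicate 2 held 140.9 CPM of Calr (120.2 to 122) and 205 CPM of Camk2b (168 to 173). Single low values were Aldoa at 7032 CPM in WT_4m replicate 1 (7469 to 7505), Serpinh1 at 6.75 CPM in WT_4m replicate 4 (14.3 to 14.9) and Kcnab1 at 10.1 CPM in WT_24m replicate 4 (14.7).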

How the results depend on the processing

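None of the 14 called genes changed sign under any alternative run, but the number of calls depended on the settings. Of the 65 genes given with values, 4 without a call changed sign: with total counts, Nampt came to 0.019, Ndufa12 to 0.0027 and Aldoa to 0.064, and Cfd ranged from -1.996 to 1.18 with single libraries left out. So did 27 of the 101 other genes of the naming rule. Against 6 higher and 8 lower, DESeq2's test gave 16 and 23, no filter 81 and 106, and total counts 14 and 5; the 14 genes were all among the calls of the first 2. Without the filter the adjusted p of Col3a1 was 1.39e-19 in place of 0.152; the cause was not tested. DESeq2's size factors gave the same counts, and the 8 WT libraries alone called 8 and 6, with 10 of the 14. Without OE_24m replicate 4, chosen after seeing the data, 8 rose and 11 fell. Leaving out single WT libraries gave 0 to 5 higher and 1 to 6 lower; without WT_24m replicate 2 1 and 1 were called, and without WT_4m replicate 2, 0 and 4. These fits hold fewer samples. The difference between genotypes gave 1 call by DESeq2 and 106 without the filter, against 0. Several list medians near 0 changed sign with single libraries, as did those of adipocyte markers (0.18 to -0.51 without WT_24m replicate 1) and complement genes (-0.32 to 0.02 without WT_4m replicate 3). Genes of a few CPM rest on few counts, such as the 12 counts of Igkc in the young libraries.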

Other observations

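Some lists that gave no call were still separate between the WT ages in their summed level. The immediate early genes, which respond within minutes to stimulation, summed to 675, 675, 583 and 613 CPM in the young and 826, 845, 890 and 914 CPM in the old libraries. Of 24 tested members 21 lay above 0, 4 with an unadjusted p below 0.05, among them Jun at 75.2 to 116 and 136 to 165 CPM (log2 fold change 0.51, adjusted p = 0.306) and Nr4a1 at 21.3 to 85.1 and 91.3 to 177 CPM (1.24, adjusted p = 0.502). In MCK-NamptOE muscle the sums overlapped, at 503.6 to 760 and 614 to 1020 CPM. Polyamine genes summed to 1657 to 1841 CPM in the young and 1271 to 1394 CPM in the old WT libraries. Odc1, which makes putrescine, was at 710 to 760 and 445 to 596 CPM (-0.54, adjusted p = 0.167), and Smox, which oxidises spermine, at 99.8 to 194 and 63.7 to 92.8 CPM (-0.81, adjusted p = 0.306).

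Clock genes lay on both sides of 0, and 0 of 21 passed edgeR's test. Bhlhe40, a repressor of the clock, was at 19.7 to 34.6 and 37.8 to 52.0 CPM (log2 fold change 0.78, adjusted p = 0.0833), and Per2 at 2.05 to 3.03 and 3.90 to 10.5 CPM (1.34, adjusted p = 0.231). Arntl, which activates Per2, was at 62.3 to 115 and 34.4 to 79.3 CPM (-0.53, adjusted p = 0.504). Of the 21, 5 lay higher and 4 lower with an unadjusted p below 0.05, which became 6 and 1 with total-count scaling. The lower count was also 1 without WT_24m replicate 1 or WT_4m replicate 4, it was 2 without WT_4m replicate 2, and without WT_24m replicate 4 the counts were 3 and 2. The hour at which the muscle was taken is not given in the sources used here.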
